A study of Mus musculus with 3 samples.

Results

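The 10 genes described here encode secreted components of the Wnt pathway and transcripts that the pathway controls. The group was defined by gene name and not by a threshold on signal, but with earlier results of these data known. It comprises the ligand Wnt5a and the target genes Axin2 and Lef1. The others are the secreted antagonists and family relatives Sfrp1, Sfrp2, Sfrp4, Frzb, Dkk2, Dkk3 and Wif1. All 10 were read by at least 1 probe whose transcript accession matched RefSeq, out of 20660 genes with such a probe. Of the 10, 9 were well above background in at least 1 state and 7 in all 3 states, against 15393 and 13475 of all genes.

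Expression was measured with 1-colour Agilent mouse arrays in cardiac myofibroblasts, the contractile fibroblasts that lay down scar matrix in the injured heart. The cells came from C57BL/6J male mice whose left anterior descending coronary artery had been tied permanently 3 days earlier. The labels give the age as 8 weeks in 1 field and as 10 weeks at ligation in another. Hearts were digested with collagenase and elastase, cells were allowed to settle on plastic overnight, and those negative for the leukocyte protein CD45 in magnetic sorting were taken as myofibroblasts. The labels give no genetic change or drug, and all 3 states share the infarct and the sort. Adherent cells were kept on plastic plates, non-adherent cells were moved from plates into suspension on a low-attachment surface, and re-adherent cells were returned from suspension to plastic, for a week in each state per the methods of the study. Each RNA sample was a mixture from several plates and each state had 1 array, so no spread between cultures is known and no test was possible. The states followed each other in time and many cells were lost in suspension, so state, total time in culture and survival cannot be told apart.

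Wnt proteins are secreted lipid-modified ligands that bind Frizzled receptors. With the co-receptors Lrp5 and Lrp6 they stabilise β-catenin, which joins TCF and LEF factors on target genes, and through Ror and Ryk receptors they act without β-catenin. Secreted Frizzled-related proteins (Sfrp1, Sfrp2, Sfrp4 and Frzb) and Wif1 bind Wnt ligands outside the cell, whereas Dickkopf proteins such as Dkk2 bind the Lrp co-receptors. In the infarcted heart, Wnt genes and their antagonists are known to be active in the fibroblasts of the scar.

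Promoter sequence was available for 6 of the 10 genes, in 9 windows reaching from 250 bases before to 50 bases after an annotated start. The windows below were shown because Dkk2 and Frzb were both low in suspension and high in either attached state, whereas Sfrp2 was lower only on the re-adherent array. They are RefSeq sequences of the mouse assembly GRCm38.p6 in the direction of the gene, 5′ to 3′, with each CpG dinucleotide in capitals. Dkk2 lies on the plus strand at chr3:132085042-132085341, Frzb on the minus strand at chr2:80447347-80447646 and Sfrp2 on the plus strand at chr3:83766071-83766370.
Dkk2: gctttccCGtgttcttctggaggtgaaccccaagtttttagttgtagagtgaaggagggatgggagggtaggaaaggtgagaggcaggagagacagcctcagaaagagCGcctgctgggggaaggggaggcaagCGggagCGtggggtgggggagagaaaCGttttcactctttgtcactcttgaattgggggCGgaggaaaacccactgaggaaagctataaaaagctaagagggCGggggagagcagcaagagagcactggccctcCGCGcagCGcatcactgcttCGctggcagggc
Frzb: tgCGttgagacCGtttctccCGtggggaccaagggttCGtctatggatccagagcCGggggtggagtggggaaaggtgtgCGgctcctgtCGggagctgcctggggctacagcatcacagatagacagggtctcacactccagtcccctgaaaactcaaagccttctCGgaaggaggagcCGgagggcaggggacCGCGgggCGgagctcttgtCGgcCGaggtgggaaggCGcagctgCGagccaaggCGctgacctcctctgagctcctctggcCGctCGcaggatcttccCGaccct
Sfrp2: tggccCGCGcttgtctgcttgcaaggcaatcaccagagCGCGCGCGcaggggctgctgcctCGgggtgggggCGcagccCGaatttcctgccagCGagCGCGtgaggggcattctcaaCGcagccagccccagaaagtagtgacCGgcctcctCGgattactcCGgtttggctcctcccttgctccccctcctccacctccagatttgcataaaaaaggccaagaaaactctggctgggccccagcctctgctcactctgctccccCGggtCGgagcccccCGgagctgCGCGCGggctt

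The Dkk2 window held 11 CpG dinucleotides with a GC content of 57.7%. The Frzb window held 20 with 64.7%, and the Sfrp2 window 22 with 66.0%, so Sfrp2 and Frzb resemble each other in base composition although their signals differed between the states in unlike ways. The median over all 32851 promoter windows in the table was 7 CpG dinucleotides and 52.7% GC. Letters of 3 motifs were searched on both strands, none of which contains another: CTTTGAT, a core bound by TCF and LEF factors, GGAATG, a core bound by TEAD factors, and TGANTCA, bound by AP-1. They occurred in 3.73%, 14.7% and 7.81% of all windows and in 5.26%, 6.58% and 3.95% of the 76 windows of the Wnt pathway list. None of the 9 windows of the 10 genes held any of these letters, which says only that they are not in these windows. Windows of 5 further pathway genes described below, Wnt4, Wnt10b, Ryk, Lgr6 and Sp5, were read singly, and of these the target gene Sp5 held a match. Its window at chr2:70474673-70474972 on the plus strand is shown with the TCF and LEF core in capitals, at positions -104 to -98 from the start.
Sp5: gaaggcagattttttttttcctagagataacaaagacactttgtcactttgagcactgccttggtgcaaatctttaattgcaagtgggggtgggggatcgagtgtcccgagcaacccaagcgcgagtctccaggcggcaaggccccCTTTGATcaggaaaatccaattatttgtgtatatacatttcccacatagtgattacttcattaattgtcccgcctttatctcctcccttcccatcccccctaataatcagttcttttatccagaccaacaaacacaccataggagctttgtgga

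The signal of a spot is the background-subtracted processed intensity, given in units before scaling, and for comparison each array was scaled to the 75th percentile of its spots, which was 651, 697 and 541 intensity units for adherent, non-adherent and re-adherent cells. On each array 53.9% to 59.9% of the 59305 non-control spots passed as well above background, and the lowest such signal was 14.0 to 18.3 units. Differences are given as log2 of the scaled signals with the technical error that the software assigned to the spots. Its median was 0.20 for each pair of arrays, and it covers neither cultures nor animals. Probes spotted 10 times on an array gave a smaller spread, with a median SD of 0.06 to 0.08. Signals of different genes come from different probes and were not set against each other.

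Of the 9 measured genes 6 were over 2-fold lower and 1 higher in suspension than in adherent cells. The shares of all genes were 14.7% and 17.2%. The 6 include Axin2, well above background on neither of these arrays, and Lef1, not well above background in suspension. The widest differences were those of Dkk2 and Dkk3, in opposite directions. Dkk2 was 15.5-fold lower in suspension than before it, and 25.9-fold higher in re-adherent than in suspended cells. Dkk3 was 15.6-fold higher in suspension and 24.3-fold lower after re-adhesion. Wnt5a, Frzb and Sfrp1 were 2.38-fold to 3.61-fold lower in suspension, and of these Frzb and Wnt5a were over 2-fold higher again on re-adhesion. Sfrp2 and Sfrp4 were within 2-fold in suspension and differed over 2-fold on re-adhesion, in opposite directions.

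**Figure D1:**
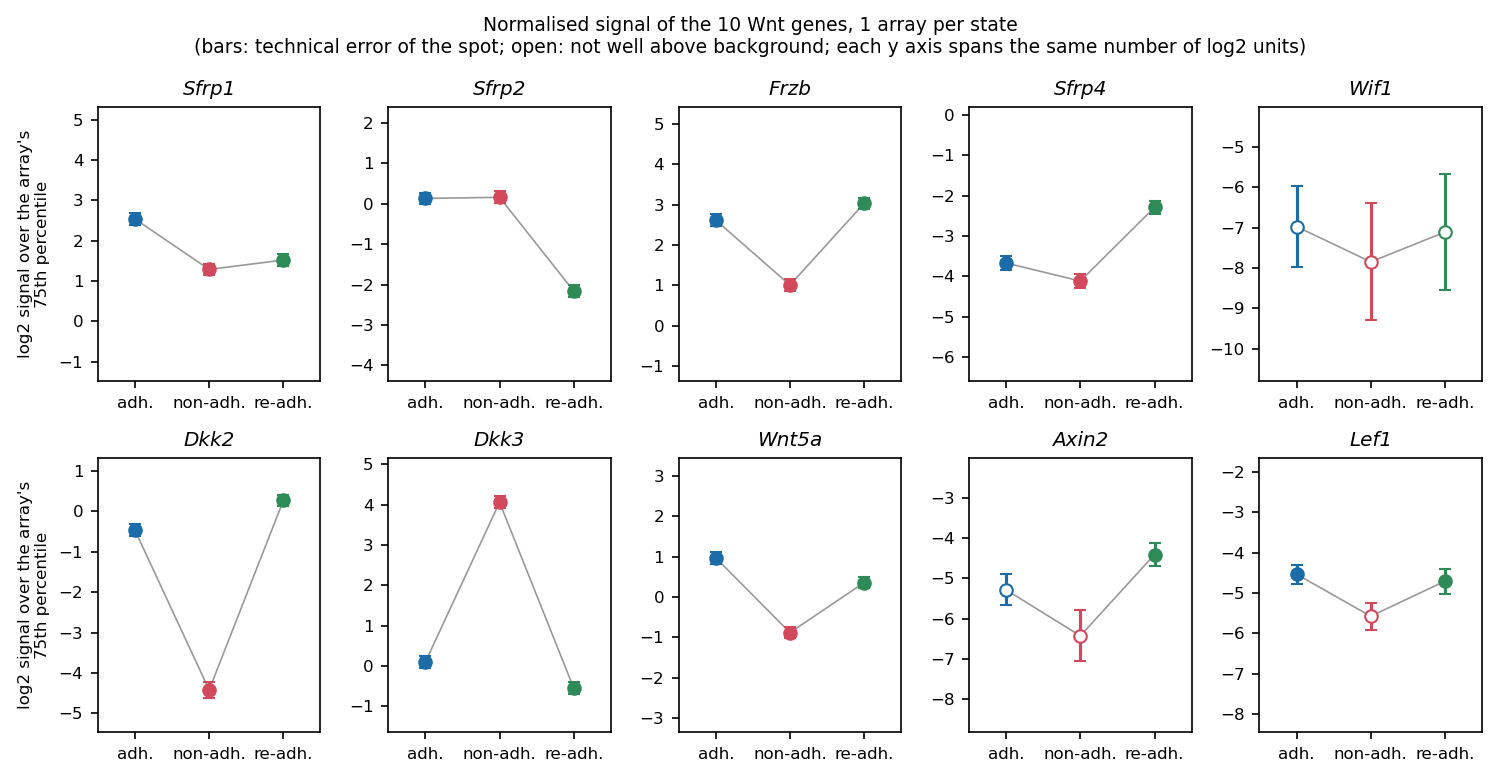
Log2 signal over the array's 75th percentile (y axis) of the 10 genes for adherent, non-adherent and re-adherent cells, 1 array per state. Bars are the technical error of the spot and open points were not well above background. Dkk2 dips and Dkk3 peaks on the non-adherent array, Sfrp2 is low and Sfrp4 high on the re-adherent array, and Wif1 is open throughout.

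Wnt5a encodes a ligand that signals mostly without β-catenin. Its signal was 1275 units in adherent, 378 in non-adherent and 693 in re-adherent cells, lowest in suspension and highest in the adherent state. On the log2 scale, non-adherent cells differed from adherent cells by -1.85 ± 0.20 (technical error), re-adherent cells from non-adherent cells by 1.24 ± 0.20 and re-adherent cells from adherent cells by -0.62 ± 0.20. Each of these was more than 3 times its technical error. The difference on re-adhesion lost the 2-fold limit without scaling between arrays, at 0.87, and with the authors' values, at 0.96.

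Sfrp1, an antagonist that binds Wnt ligands through a Frizzled-like domain, gave 3776, 1698 and 1551 units in the adherent, non-adherent and re-adherent states. It was high in adherent cells and near the same level in the others. The difference was -1.25 ± 0.20 for non-adherent against adherent cells and -1.02 ± 0.20, or -0.93 with median scaling, for re-adherent against adherent cells. The difference of 0.23 ± 0.20 between re-adherent and non-adherent cells was about the size of its error and turned to -0.13 without scaling between arrays.

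Frzb, also called Sfrp3, gave 4001, 1403 and 4440 units in the same order. Its non-adherent signal was low, at -1.61 ± 0.20 against the adherent array, and the re-adherent signal was 2.03 ± 0.20 above the non-adherent signal. Re-adherent and adherent cells differed by 0.42 ± 0.20, which turned to -0.08 with spike-in scaling, so no order of these arrays could be given. The region of the slide around the Frzb spot was itself shifted, with a median difference of 0.31 for the spots near it in the second of these pairs, the largest such shift at any of the 10 genes.

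Sfrp2 gave 714, 779 and 121 units and was low on the re-adherent array only. Non-adherent and adherent cells differed by 0.03 ± 0.20, or by -0.35 with spike-in scaling. The re-adherent array lay -2.32 ± 0.21 from the non-adherent and -2.30 ± 0.21 from the adherent array, 5.01-fold and 4.91-fold lower. Under the normexp correction these differences were -1.90 and -1.77. Of 15393 genes, 110 had a lower value than Sfrp2 in re-adherent against adherent cells.

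Sfrp4 gave 51.1, 40.1 and 111 units and was high on the re-adherent array. Against the adherent array the difference was -0.45 ± 0.25 for non-adherent and 1.38 ± 0.23 for re-adherent cells, and the re-adherent array lay 1.83 ± 0.24 above the non-adherent array. In re-adherent against adherent cells, 405 of 15393 genes had a higher value. That difference lost the 2-fold limit with spike-in scaling, at 0.88, and with the normexp correction, at 0.997.

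Dkk2 encodes a Dickkopf protein that binds Lrp co-receptors and can dampen or, in some settings, aid β-catenin signalling. It gave 472, 32.5 and 654 units for adherent, non-adherent and re-adherent cells, well above background in each. The log2 differences were -3.96 ± 0.25 into suspension, 4.70 ± 0.25 on re-adhesion and 0.74 ± 0.20 between re-adherent and adherent cells. Of 15393 genes, 161 lay lower than Dkk2 in suspension and 128 lay higher on re-adhesion. The non-adherent signal was dim, and these sizes depended on the background correction, with -2.61 and 3.24 under the normexp method.

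Dkk3 encodes a divergent Dickkopf protein whose link to Wnt signalling is less settled. Its signal was 697, 11604 and 371 units, by far highest on the non-adherent array. The differences were 3.96 ± 0.20 into suspension, -4.60 ± 0.20 on re-adhesion and -0.64 ± 0.21 between re-adherent and adherent cells. In suspension 88 of 15393 genes had a higher value, and on re-adhesion 85 had a lower value.

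Wif1, which encodes an antagonist that binds Wnt ligands, gave 5.19, 3.03 and 3.92 units. No array had it well above background, so no difference is given.

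Axin2 encodes a scaffold of the β-catenin destruction complex and is widely used as a readout of β-catenin signalling. It had 2 probes. The brighter gave 16.7, 8.10 and 25.4 units and passed as well above background in re-adherent cells alone, as did 167 of all genes. With the scaling used, re-adherent cells were at least 2.33-fold above non-adherent and at least 1.82-fold above adherent cells. These bounds leave out technical errors of 0.70 and 0.48 on the log2 scale. The normexp correction gave log2 differences of 0.62 and 0.39, and spike-in scaling gave 0.37 against adherent cells, all below these bounds. The other probe gave 4.01, 7.33 and 4.45 units, none of them well above background, so the re-adherent signal of Axin2 rests on a single spot.

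Lef1 encodes a factor that carries β-catenin to target genes and is itself a target. Its signal was 28.1, 14.6 and 20.7 units, and the suspended cells were not well above background. By the measured signals, their level was exceeded 2.06-fold by adherent and 1.83-fold by re-adherent cells, with technical errors of 0.41 and 0.46 on the log2 scale. The second of these, 0.87 on the log2 scale, fell to 0.50 without scaling between arrays. The measured difference in suspension, -1.04, lost the 2-fold limit under 6 alternatives, at -0.97 to -0.43. Re-adherent and adherent cells differed by -0.17 ± 0.39, which is less than the error and turned to 0.14 under the normexp correction.

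Counted together, 6 of the 9 measured genes were over 2-fold lower and 1 was over 2-fold higher in non-adherent against adherent cells, where 14.7% of all genes were lower and 17.2% higher by that much. The 6 include Axin2, which was not well above background on either array, and 5 remained without it. Axin2 and Lef1 entered through the arrays on which they were brightest. Among the 7 genes well above background on all 3 arrays 4 were lower and 1 higher in suspension. Of all genes passing that filter 13.4% were lower and 15.2% higher. On the re-adherent against the non-adherent array 2 of the 9 were lower and 5 higher, against 16.3% and 15.6% of all genes. In re-adherent against adherent cells 2 were lower (Sfrp1 and Sfrp2) and 1 higher (Sfrp4), against 4.9% and 4.84%. At 4-fold, suspension gave 1 lower (Dkk2) and 1 higher (Dkk3), against 5.34% and 7.61% of all genes. Re-adhesion gave 2 lower (Sfrp2 and Dkk3) and 3 higher (Frzb, Dkk2 and, by its measured value only, Axin2), against 6.05% and 5.7%. Of these, Frzb lost the 4-fold limit with the authors' values, at 1.75, and Sfrp2 with the normexp correction, at -1.90. In re-adherent against adherent cells 1 was lower (Sfrp2, which lost this limit under normexp, at -1.77) and 0 higher, against 1.29% and 1.36%. The median differences of the 9 were -1.14, 1.24 and -0.17 in these comparisons, beside -0.07, 0.08 and 0.06 for all genes. The comparisons share arrays, so a low non-adherent signal enters both of the steps. The genes were chosen with earlier results of these data known, so these shares are a description only.

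The genes with the pattern most like that of Dkk2 were Hrct1, Ccn4 and Pak3, at a Euclidean distance of 0.083, 0.19 and 0.24 log2 units over the pair of differences. Nearest to Dkk3 were C3, which encodes the central complement component, and Lbp, which encodes a protein that binds bacterial lipopolysaccharide, both at 0.16, followed by Strip2 at 0.45. These distances rest on 3 arrays and 13475 genes and describe likeness of pattern only.

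The wider pathway was read from a list of 94 genes in 8 roles that includes the 10 genes. This list was also chosen with earlier results known, so its shares and those of its roles are a description only. Of the 94, 71 were well above background on at least 1 array, among them the 9 measured genes. On the non-adherent against the adherent array 24 were over 2-fold lower and 6 higher. These are 33.8% and 8.45% of the 71, against 14.7% and 17.2% of all genes. The 9 genes supplied 6 of the 24 lower calls and 1 of the 6 higher calls. On re-adhesion 8 were lower and 21 higher, or 11.3% and 29.6%, against 16.3% and 15.6% of all genes, but 14 lower and 11 higher without scaling between arrays, when 23.4% of all genes were lower and 9.9% higher. With the authors' own scaling 12 were lower and 16 higher. In re-adherent against adherent cells 9 were lower and 3 higher, against 4.9% and 4.84% of all genes, or 17 and 0 with spike-in scaling, when 13.0% of all genes were lower and 2.2% higher. The medians of the list were -0.45, 0.40 and -0.04.

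**Figure D2:**
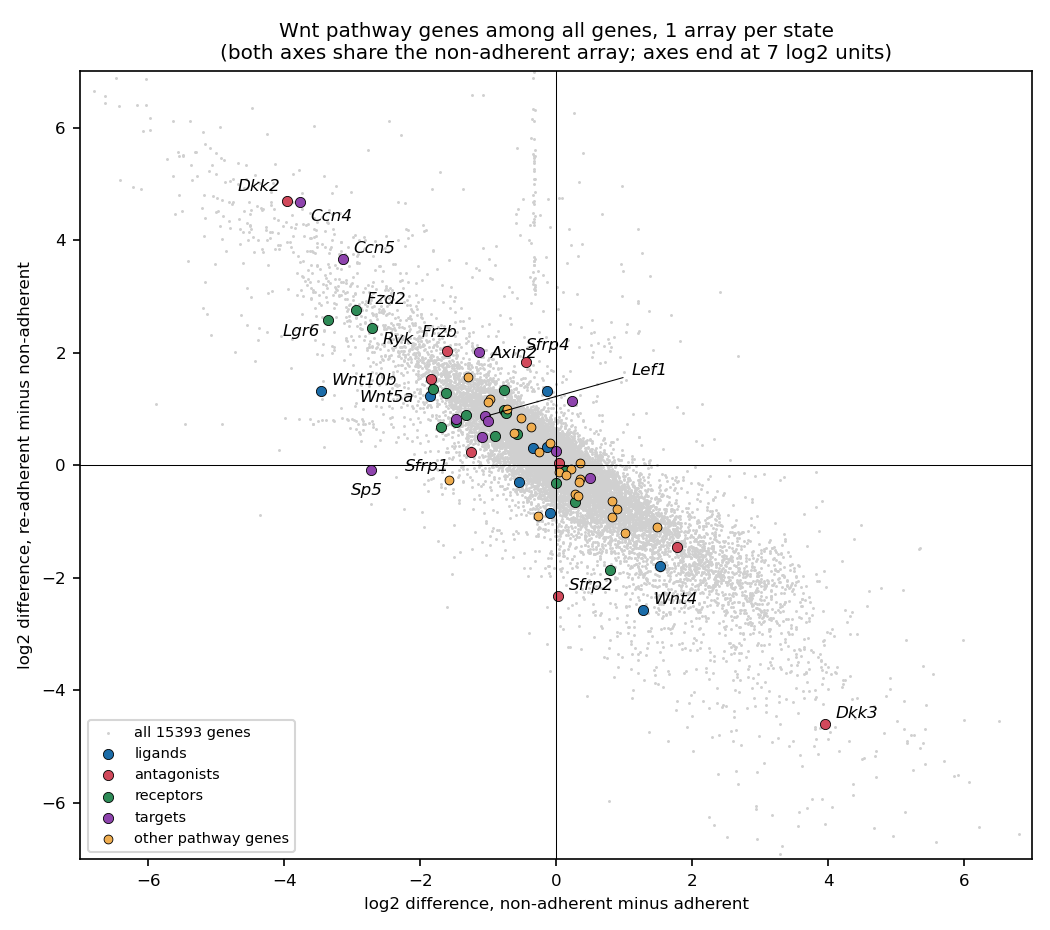
Log2 difference of re-adherent against non-adherent cells (y axis) by that of non-adherent against adherent cells (x axis) for all 15393 genes (grey) and the Wnt pathway genes (coloured by role), 1 array per state. Both axes share the non-adherent array, and the vertical run of grey points left of the centre line holds mostly genes well above background in re-adherent cells alone. Dkk2 lies beside Ccn4 at the upper left with Ccn5, Fzd2 and Ryk, Dkk3 lies at the lower right, and Sfrp2 lies near 0 on the x axis.

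Of 17 receptors measured, 8 (47.1%) were over 2-fold lower in suspension and 0 higher, against 14.7% and 17.2% of all genes, with a median difference of -0.90 beside -0.07. Of the 8, Lgr6 was not well above background in suspension. Fzd2, a Frizzled receptor, gave 8590, 1195 and 6247 units, low in suspension and high in both attached states. Its differences were -2.94 into suspension and 2.75 on re-adhesion by the brighter probe, and -1.94 and 1.54 by the other. Ryk, a receptor that binds Wnt5a, gave 7087, 1161 and 4914 units, with differences of -2.71 and 2.45. Lgr6, a receptor for R-spondins, gave 42.7, 4.47 and 20.9 units and did not pass the background limit in suspension, a level exceeded at least 3.26-fold in the adherent state and at least 1.92-fold on re-adhesion. On re-adhesion 6 of the 17 receptors were over 2-fold higher and 1 lower, against 15.6% and 16.3% of all genes. The exception was Fzd1, at 2519, 4653 and 998 units.

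Of 11 targets measured, 7 (63.6%) were over 2-fold lower in suspension and 0 higher, against 14.7% and 17.2% of all genes, with a median difference of -1.09 beside -0.07. Of the 7, Axin2, Lef1 and Sp5 entered through a state in which they were bright and were not well above background in suspension, Axin2 in neither state compared, which favours a lower call. The widest differences were those of Ccn4 and Ccn5, matricellular proteins also known as Wisp1 and Wisp2. Ccn4 gave 7801, 612 and 12153 units, with differences of -3.77 and 4.68 that both of its probes shared. Ccn5 gave 29553, 3579 and 35092 units, with differences of -3.14 and 3.66. Sp5, a transcription factor induced by β-catenin and shown above with its TCF and LEF core, gave 36.8, 5.98 and 4.37 units. It was well above background on the adherent array alone, at least 2.81-fold above the non-adherent and at least 1.67-fold above the re-adherent array. On re-adhesion 4 of the 11 targets were over 2-fold higher and 0 lower, against 15.6% and 16.3% of all genes. The 4 include Axin2, which was not well above background in non-adherent cells. Ccnd1, which encodes cyclin D1, was highest on the re-adherent array at 12543, 15745 and 26956 units.

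Of 19 ligands listed, 9 were well above background in any state. In suspension 2 of the 9 (22.2%) were over 2-fold lower and 2 (22.2%) higher, against 14.7% and 17.2% of all genes. Wnt4 gave 267, 690 and 89.8 units, highest in suspension at 1.27 above the adherent array and lowest on the re-adherent array, -2.58 from the non-adherent array. Its other probe put the first of these at 0.53. Wnt10b gave 41.2 units in adherent cells and was not well above background in the other states, which adherent cells exceeded at least 3.14-fold (non-adherent) and 1.87-fold (re-adherent). Wnt6 gave 18.1, 56.1 and 12.6 units, highest in suspension. Wls, which carries Wnt ligands to the cell surface, gave 9123, 5915 and 9215 units.

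Among 17 listed antagonists 10 were measured, 4 of them over 2-fold lower and 2 higher in suspension, against 14.7% and 17.2% of all genes. Besides the genes described above, Apcdd1, a membrane inhibitor, gave 147, 43.6 and 97.7 units, and Sfrp5 was well above background in non-adherent cells alone, at 44.4 units. Notum, which removes the lipid from Wnt ligands, gave 10328, 11454 and 8600 units, and Kremen1, a co-receptor of Dickkopf proteins, gave 2232, 2456 and 1966 units. Both lay within 2-fold in each comparison.

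The 9 cytoplasmic components lay within 2-fold in suspension with the scaling used, with a median of 0.04 and Dvl1 lowest at -0.98. Ctnnb1, which encodes β-catenin, gave 9553, 12980 and 8505 units. Of 11 nuclear factors 3 were over 2-fold lower and 1 higher in suspension, against 14.7% and 17.2% of all genes. These are transcript levels and carry no measure of β-catenin protein.

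**Figure D3:**
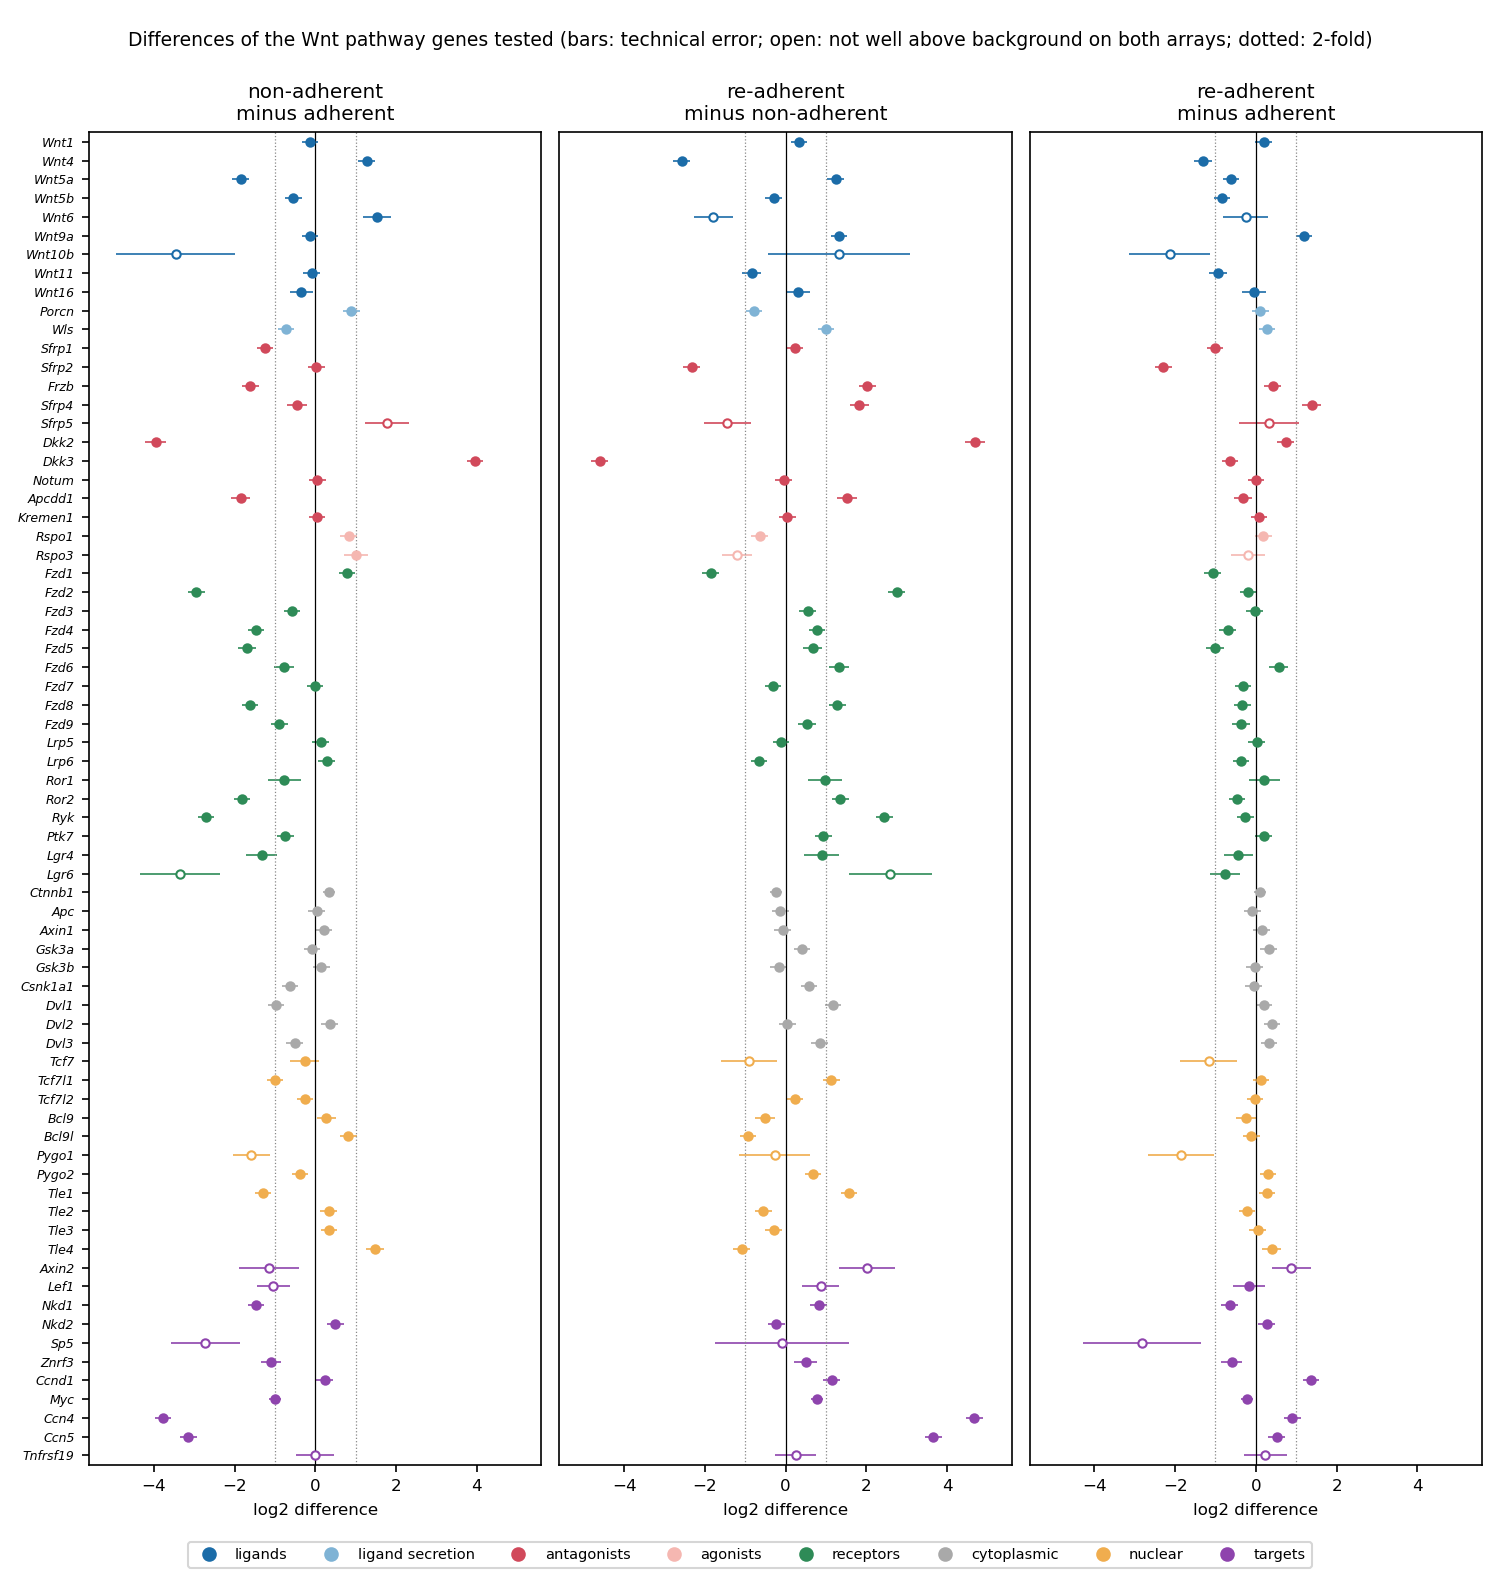
Log2 difference (x axis) of each measured Wnt pathway gene, ordered and coloured by role, in the comparisons of non-adherent with adherent, re-adherent with non-adherent and re-adherent with adherent cells, 1 array per state. Bars are technical errors, dotted lines mark 2-fold and open points lacked a signal well above background on 1 or both arrays. In suspension receptors and targets lie mostly left of 0, the cytoplasmic genes lie within the 2-fold lines, and Dkk2 and Dkk3 lie farthest out among the antagonists. In re-adherent against adherent cells Sfrp2 lies farthest out among them.

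The cells were checked against markers, as signals summed over a list in multiples of the array's 75th percentile. Myofibroblast markers summed to 2470, 478 and 2300 in adherent, non-adherent and re-adherent cells, all 10 well above background in each. In suspension 7 were over 2-fold lower, Acta2 among them at -6.64, and 1 was higher, Fap at 1.93. Postn and Col1a1 lay within 2-fold, at -0.12 and -0.70. Fibroblast markers summed to 363, 478 and 244, with 4 of 10 over 2-fold lower in suspension, Thy1 among them at -3.50, and 3 higher, namely Dpt, Lum and Dcn at 4.82, 3.56 and 1.69. The CD45-negative cells also carried macrophage transcripts, whose 11 measured markers summed to 167, 947 and 329, with 10 over 2-fold higher in suspension and 5 over 2-fold higher in re-adherent than in adherent cells. Ptprc, the gene for CD45, gave 355, 2441 and 532 units and was well above background on every array. In such bulk RNA, fewer cells of a type and less RNA per cell cannot be told apart.

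The macrophage, fibroblast, endothelial and pericyte sums were highest on the non-adherent array, as was Dkk3, whereas Wnt5a, Frzb, Dkk2 and most receptors were lowest there. In re-adherent against adherent cells the macrophage sum was higher, whereas the fibroblast sum and Dkk3 were lower. The endothelial and pericyte sums lay close together on these arrays, although their markers had median differences of -1.77 and -1.11. Bright single markers weighed heavily in these sums, Kdr at 0.39 and Mcam at 0.01 in this comparison. Endothelial markers summed to 24.4, 38.1 and 22.9, and 6 of 10 were over 2-fold higher in suspension. On the re-adherent array 6 of 10 lay over 2-fold below the adherent level. The same held for 4 of 8 pericyte, 2 of 10 fibroblast and 2 of 10 myofibroblast markers. By contrast, 5 of 11 macrophage and 3 of 8 epicardial markers lay over 2-fold above that level, and 0 lay below it by that much. Sfrp2 was low on the re-adherent array against either other array, at -2.30 (adherent) and -2.32 (non-adherent). Epicardial markers summed to 24.2, 8.93 and 20.5, lowest on the non-adherent array as were Frzb and Dkk2. Pericyte markers summed to 37.7, 59.4 and 36.3. Schwann cell and cardiomyocyte markers were dim, at sums of 0.446 to 0.785 and of 1.18 to 3.36. The part of any of these cell types in the differences of the Wnt genes was not tested.

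**Figure D4:**
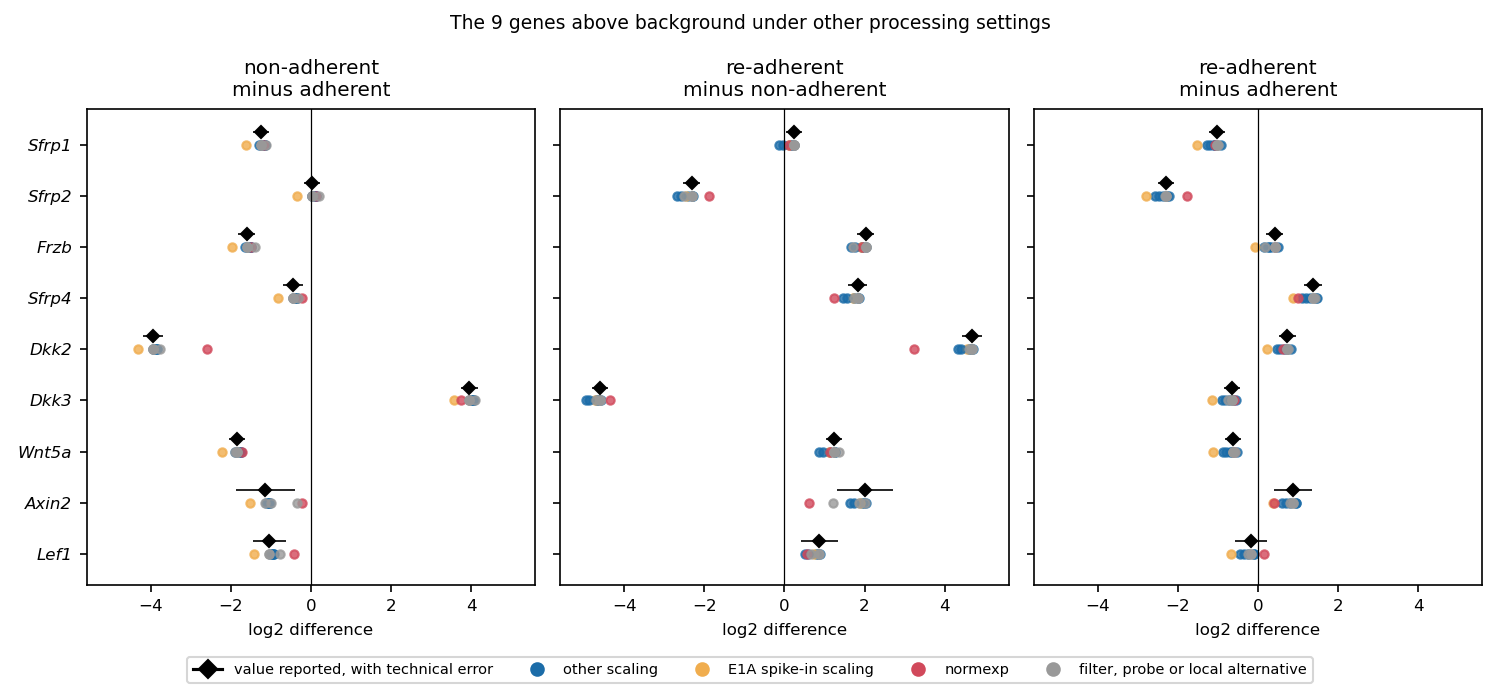
Log2 differences (x axis) of the 9 measured genes in the comparisons of non-adherent with adherent, re-adherent with non-adherent and re-adherent with adherent cells. Diamonds are the reported values with their technical errors, and coloured points are the values under other scalings, background correction, filters, probe choice and local correction. In the first and second panels Dkk2 and Dkk3 lie more than 2 log2 units from 0 under each setting shown, with the normexp points of Dkk2 closest to 0, whereas in the third panel both lie nearer to 0.

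Across 11 alternatives, Dkk3 lay between 3.58 and 4.09 in suspension and between -4.97 and -4.36 on re-adhesion. Dkk2 lay between -4.33 and -2.61 and between 3.24 and 4.71 for the same steps. Wnt5a kept its direction in all 3 comparisons under these alternatives, and so did Sfrp4, Dkk2 and Dkk3.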

How the data were processed

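RNA from 3 states of mouse cardiac myofibroblasts was hybridised to 1 array each, on the same slide and in the same scan per the file headers. The authors deposited intensity values from Agilent Feature Extraction 10.10.1.1, background-subtracted and detrended but not scaled between arrays. The deposited matrix equalled these intensities times 1 constant per array (1.52, 1.52 and 1.62), with its method not given in the sources used here.

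Control spots and 154 to 180 flagged spots per array were left out, and no other spot was saturated. Here log2 intensities were taken relative to the 75th percentile of the array. Of 37881 transcript names, 21465 matched RefSeq (GRCm38.p6), which named 27235 of 55681 probes. A gene entered when any array had it well above background, and was read by its brightest probe. Where 1 array of a pair did not, a fold is a bound under the scaling used. It is the brighter scaled signal over the dim signal or that array's lowest signal passing as well above background, whichever is higher. For Lef1 the dim signal was the higher, so its measured folds are given. The number of arrays limits the precision.

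The 10 genes, the pathway list and the marker lists were chosen with earlier results of these data known. Named were the 10 genes, pathway genes over 4-fold different in any comparison (up to 6 per role) and the 3 genes nearest Dkk2 and Dkk3. A few further pathway genes were named after their values were seen: Fzd1, Ccnd1, Wnt6, Wls, Apcdd1, Sfrp5, Notum, Kremen1, Ctnnb1 and Dvl1. The calculation was tested on simulated data. Python 3.11.15 with numpy 2.4.6 and pandas 2.3.3 was used, and limma 3.58.1 in R 4.3.3 for the normexp correction, run on median intensities with an offset of 50.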

Additional observations from a re-analysis of the deposited data

How the results depend on the processing

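No paired analysis was possible because no state has more than 1 array, and for the same reason no replicate could be left out. Counts of genes over 2-fold were recomputed under 14 alternatives and member differences under up to 11, of which 1, keeping only genes well above background on 1 or both arrays compared, was chosen after seeing the data. Of 291 recomputed member differences, 239 stayed within their technical error and 52 did not. Part of this stability is by construction. For the 7 genes well above background on all 3 arrays, the floor, the all-array filter and the mean over probes return the reported value. No difference larger than 2-fold turned its sign, whereas smaller ones of Sfrp1, Sfrp2, Frzb and Lef1 did. Of 168 recomputed counts, 141 stayed within 1.5 times.

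For the members, a limit of 4-fold gave 1 lower in suspension, 3 higher on re-adhesion, and 1 lower and 0 higher between re-adherent and adherent cells. For the last of these, median scaling gave 1 lower, spike-in scaling 4 lower and 0 higher, and normexp 0 higher. Among the pathway genes, a limit of 4-fold gave 8 lower and 1 higher in suspension, 3 lower and 8 higher on re-adhesion, and 3 lower and 0 higher in re-adherent against adherent cells. Normexp gave 14 lower and 2 higher in suspension, 4 lower on re-adhesion and 2 lower in re-adherent against adherent cells. The filter on all 3 arrays gave 3 higher in suspension, 5 lower on re-adhesion and 5 lower in re-adherent against adherent cells. Without scaling, re-adhesion gave 14 lower and 11 higher. For re-adherent against adherent cells, spike-in scaling gave 17 lower and 0 higher, signals raised to the floor 5 lower, and no filter 6 higher. The limit of 4-fold and the filters change counts by construction. Spike-in scaling moved the median of all genes to -0.44, -0.05 and -0.44 in the 3 comparisons, and no scaling moved it to 0.03, -0.28 and -0.20. The cause of the other changes was not tested. Dim signals limit Axin2, Lef1 and Wif1, which lay at or near background.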
